A study of Mus musculus with 6 samples.

Results

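Calcineurin and the NFAT factors it acts on were followed in osteoclasts as a group of 7 genes: the NFAT factors Nfatc1, Nfatc2 and Nfatc3, the catalytic calcineurin subunits Ppp3ca and Ppp3cb, the regulatory subunit Ppp3r1, and Rcan1, an inhibitor of calcineurin. They were picked by name from the 55573 genes counted. All 7 were among the 16954 genes with enough counts to be tested. RNA-Seq was performed on 3 control and 3 Rosa-Hes1 libraries, all from male mice, to ask what HES1, a transcriptional repressor and target of Notch, changes when it is induced in osteoclasts.

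Rosa-Hes1 cells came from Ctsk Cre/WT;Rosa Hes1 mice. In these mice Cre recombinase, placed in the Ctsk locus and therefore switched on in cells that express cathepsin K, removes a STOP cassette in front of a Hes1 coding sequence in the Rosa26 locus. The labels call the controls wild type, and the methods of the study describe them as Rosa[STOP]Hes1 littermates, which carry the Rosa26 allele with the STOP cassette in place and no Cre. Rosa-Hes1 cells therefore differed from controls also in Cre and in the copy of Ctsk that carried it. By the study's account the Rosa26 allele without the cassette also expresses GFP together with HES1. The mice were 10 weeks old by the study's account. Bone marrow-derived macrophages of both groups spent 4 days in 30 ng/ml M-CSF plus 10 ng/ml RANKL, the cytokines that turn macrophages into osteoclasts. The labels name the replicates biological, but do not say whether each was a separate mouse.

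Calcineurin is a phosphatase of a catalytic and a regulatory subunit that calcium and calmodulin switch on. It removes phosphates from NFAT factors in the cytoplasm, which lets them enter the nucleus, and RCAN proteins bind to calcineurin and hold it back. In osteoclasts RANKL induces Nfatc1, which is required for differentiation and raises its own transcription. Calcineurin activity and the nuclear entry of NFAT are regulated in the protein, so transcript levels measure the supply of the pathway and not its activity.

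The libraries held 13038362 to 15956331 counts assigned to genes. Hes1 itself was read with 7, 9 and 4 counts in the control libraries and 75, 74 and 95 counts in the Rosa-Hes1 libraries, a log2 fold change of 3.57 (SE 0.30, adjusted p = 0.00477), so every library matched its label. Adjusted p values here and below come from edgeR's quasi-likelihood test over all 16954 genes, with Benjamini-Hochberg adjustment and a threshold of 0.05. Osteoclast markers were abundant in all 6 libraries, and 9 of 10 rose in Rosa-Hes1 cells (90%, compared with 8.25% called over all tested genes). The study had already reported most of these 10 markers as increased in its RNA-Seq, so this share describes the cultures and is no independent support. The summed level of the markers was 10511 to 13565 CPM (counts scaled to library size and composition) in controls. In Rosa-Hes1 libraries it was 16777 to 19737 CPM, without overlap. The 7 macrophage markers summed to 4462 to 5572 CPM in controls and 4839 to 5878 CPM in Rosa-Hes1 libraries. In this bulk RNA a larger share of osteoclasts in the culture and a higher level in each osteoclast cannot be told apart, and this holds for every gene below.

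Nfatc1 rose and Nfatc2 fell in Rosa-Hes1 cells, whereas Nfatc3, the 3 calcineurin subunits and Rcan1 did not pass the test. Nfatc1 was 1.39-fold higher and Nfatc2 was at 0.696 of its control level. The 2 of 7 genes called make 28.6%, compared with 8.25% of all tested genes, 5.85% being higher and 2.41% lower. The same 2 genes had control and Rosa-Hes1 libraries that did not overlap, again 28.6%, compared with 31.2% of all tested genes, so the share without overlap was close to the background. By edgeR 3 of the 7 genes were at an unadjusted p under 0.05, as were 4357 of the 16954 tested genes, the background for such counts below. The median log2 fold change was 0.11 over the 7 genes and -0.01 over all tested genes.

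**Figure D1:**
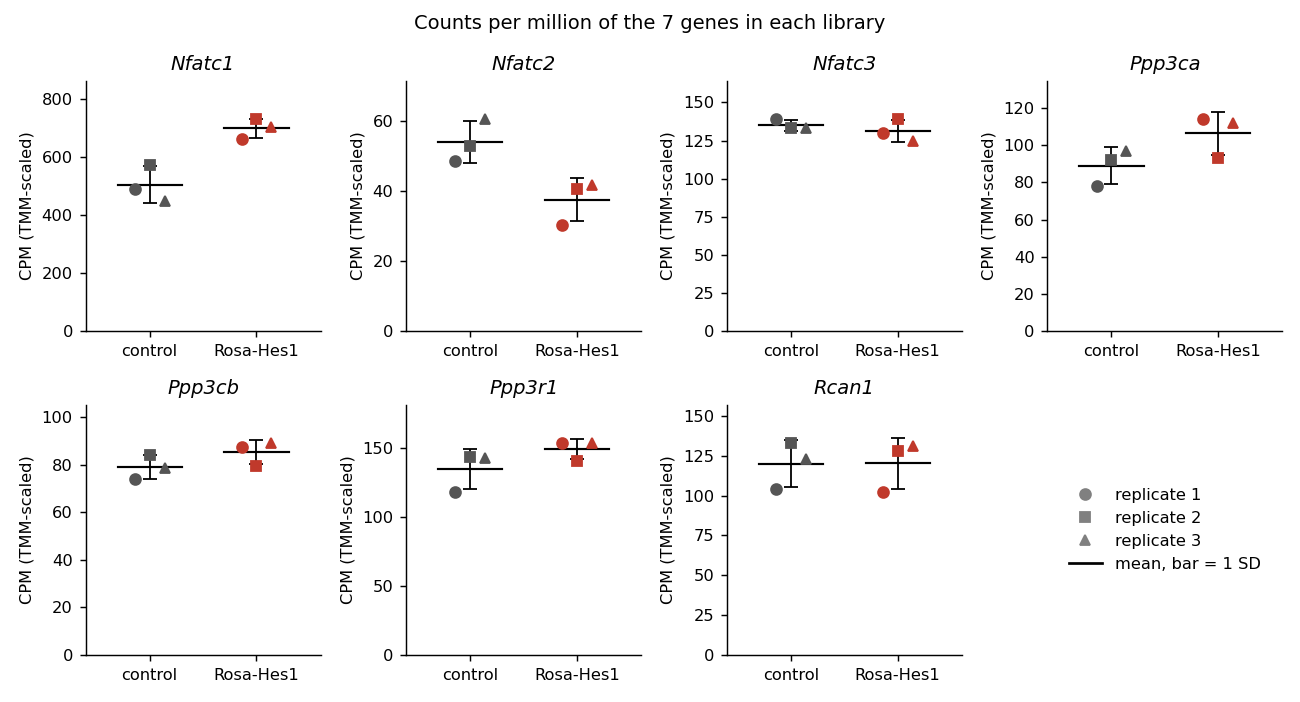
CPM of each of the 7 genes in each library, on axes that start at 0, with replicates marked by shape, the mean as a line and 1 SD as a bar. The 3 Rosa-Hes1 libraries lie above all controls for Nfatc1 (662 to 729 against 448 to 573 CPM) and below all controls for Nfatc2 (30.5 to 41.7 against 48.7 to 60.6 CPM), and the groups overlap for the other 5 genes.

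The windows in front of the transcription starts of Nfatc2 and Rcan1 are shown because Nfatc2 fell in cells in which HES1, a repressor, was induced, and because Rcan1 is an established target of NFAT. They are RefSeq sequences of GRCm38.p6, read on the minus strand, and each gives the 250 bases before a start. For Nfatc2, capitals mark the letters searched for HES1: the N-box (CACNAG), the class C site (CACGCG) and the E-box (CACGTG), each on both strands. The outer window is chr2:168601658-168601907 and the inner window is chr2:168590366-168590615.
Nfatc2 outer start: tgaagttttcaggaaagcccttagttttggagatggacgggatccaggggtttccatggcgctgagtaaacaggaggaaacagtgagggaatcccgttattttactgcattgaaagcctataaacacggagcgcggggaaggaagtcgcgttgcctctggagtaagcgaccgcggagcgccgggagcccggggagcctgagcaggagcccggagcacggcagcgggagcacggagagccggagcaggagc
Nfatc2 inner start: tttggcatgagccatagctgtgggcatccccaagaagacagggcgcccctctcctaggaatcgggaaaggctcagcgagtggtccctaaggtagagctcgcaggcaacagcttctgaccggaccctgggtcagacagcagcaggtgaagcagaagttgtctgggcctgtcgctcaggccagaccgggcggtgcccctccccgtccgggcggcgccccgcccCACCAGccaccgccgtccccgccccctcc
The outer start is the 5′ end of the gene, where 3 of its 9 annotated transcripts begin, and its window held none of the letters. At the inner start 3 further transcripts begin, in what is an intron for the other 3 transcripts that span it, and its window held 1 N-box, 29 bases before the start. An N-box stood in 42.5% of 32817 promoter windows, a class C site in 9.26% and an E-box in 7.15%. Those shares and the counts of matches refer to windows of 300 bases, which run 50 bases past the start. A match is a description of the letters and not a bound site.

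For Rcan1, capitals mark the core of the NFAT recognition sequence, GGAAA or its reverse complement TTTCC. The internal window is chr16:92400079-92400328 and the distal window is chr16:92466170-92466419.
Rcan1 internal start: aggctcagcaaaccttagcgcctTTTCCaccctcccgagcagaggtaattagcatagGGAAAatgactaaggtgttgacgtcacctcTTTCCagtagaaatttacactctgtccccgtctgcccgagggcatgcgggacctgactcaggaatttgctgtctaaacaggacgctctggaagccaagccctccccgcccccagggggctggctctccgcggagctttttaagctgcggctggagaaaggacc
Rcan1 distal start: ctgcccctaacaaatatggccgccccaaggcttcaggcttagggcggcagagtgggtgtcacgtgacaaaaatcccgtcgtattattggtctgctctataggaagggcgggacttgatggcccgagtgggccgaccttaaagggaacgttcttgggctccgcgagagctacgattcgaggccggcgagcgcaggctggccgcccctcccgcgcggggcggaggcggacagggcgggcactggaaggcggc
In the internal window the core occurred 3 times, with first bases 227, 193 and 163 bases before the start, and in the distal window it did not occur. The core stood at least once in 61.3% of promoter windows and at least 3 times in 9.41%. The internal start lies in an intron of the 4 other transcripts that span it and begins 1 of the 7 annotated transcripts. The distal start begins 2 of the 7 and lies in an intron of 1 other transcript that spans it. It is therefore not the 5′ end of the gene, whose window was not examined. The distal window held an E-box 191 bases before its start. The outer window of Nfatc2 held the NFAT core 3 times and the inner window 1 time, the window of Ppp3cb held it 4 times, the windows of Nfatc3 1 and 0 times, and that of Ppp3r1 0 times. Ppp3cb had a class C site and Nfatc3 had a class C site and an E-box in its second window. The promoters of Nfatc1 and Ppp3ca were not analysed here.

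Nfatc1 (ENSMUSG00000033016, chr18:80606205-80713071, minus strand, 7 annotated transcripts) is the NFAT factor that drives osteoclast differentiation. Its level was 488, 573 and 448 CPM in control replicates 1 to 3 and 662, 729 and 702 CPM in Rosa-Hes1 replicates 1 to 3. All 3 Rosa-Hes1 libraries were above all 3 controls, and control replicate 2 was the highest control. The means were 503 ± 63.9 CPM in controls and 698 ± 33.7 CPM in Rosa-Hes1 cells (SD, n = 3 each), and the log2 fold change was 0.47 (SE 0.09, 95% interval 0.26 to 0.69, edgeR adjusted p = 0.0225). When libraries were left out in turn, the call held on omission of control 2 (adjusted p = 0.0135) or Rosa-Hes1 2 (0.0263). It was lost on omission of control 1 (0.0869) or 3 (0.0683) and of Rosa-Hes1 1 (0.0695) or 3 (0.0681), with log2 fold changes of 0.40 to 0.58 over the 6 omissions.

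The rise of Nfatc1 stood beside that of the osteoclast markers, whose median log2 fold change was 0.73. Per 1000 counts of the 10 osteoclast markers, Nfatc1 had 46.4, 42.2 and 35.9 counts in the controls and 34.6, 43.5 and 35.6 counts in the Rosa-Hes1 libraries. On that scale the groups overlapped, with means of 41.5 ± 5.31 and 37.9 ± 4.84. This ratio was chosen after the values were seen and has no test, and Mmp9 alone made 44.1% of the marker counts. The part of osteoclast share in the rise of Nfatc1 was not tested.

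Nfatc2 (ENSMUSG00000027544, chr2:168476410-168601657, minus strand) belongs to the same calcium-regulated family and is best known as the NFAT factor of resting T cells. Its level was 48.7, 53.0 and 60.6 CPM in the controls, compared with 30.5, 40.7 and 41.7 CPM in Rosa-Hes1 cells. Every Rosa-Hes1 library was below every control, and Rosa-Hes1 replicate 1 was the lowest of the 6. The means were 54.1 ± 6.0 and 37.6 ± 6.17 CPM, and the log2 fold change was -0.52 (SE 0.13, 95% interval -0.82 to -0.22, edgeR adjusted p = 0.0468). The call held on omission of Rosa-Hes1 2 (adjusted p = 0.0399) and was lost on that of control 1 (0.0824), 2 (0.108) or 3 (0.126) and of Rosa-Hes1 1 (0.12) or 3 (0.0693).

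Markers of T and NK cells, in which Nfatc2 is also expressed, summed to 3.99 to 7.80 CPM in controls and 3.89 to 7.49 CPM in Rosa-Hes1 libraries. Cd4 made most of each sum, at 3.7 to 7.18 CPM in controls and 3.03 to 6.69 CPM in Rosa-Hes1 libraries. Of the 8 markers 3 had enough counts to be tested, none of them passed by edgeR, DESeq2 or limma-voom or at an unadjusted p under 0.05 (0 of 3 each), and Cd3e and Cd3g were at 0 in all 6 libraries. Per 1000 counts of macrophage markers, Nfatc2 had 10.9, 11 and 10.9 counts in controls and 5.70, 8.41 and 7.09 counts in Rosa-Hes1 libraries. On that scale too every Rosa-Hes1 library was below every control; it was also chosen after the values were seen and has no test. Csf1r made 34.2% of the macrophage marker counts. Both Csf1r and Cd68 were higher in every Rosa-Hes1 library than in any control, which lowers this ratio without a change in Nfatc2. The remaining macrophage markers had log2 fold changes of -0.37 to -0.06.

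Nfatc3 (ENSMUSG00000031902, chr8:106058840-106130537, plus strand) was at 139, 133 and 133 CPM in controls and at 130, 139 and 125 CPM in Rosa-Hes1 libraries. The groups overlapped, and the coefficient of variation among controls was 2.64%, the lowest of the 7 genes. The log2 fold change was -0.04 with a 95% interval of -0.19 to 0.11 (edgeR adjusted p = 0.768), which corresponds to 0.877 to 1.08 times the control level. Of its exon bases 1.87% overlap Esrp2 on the other strand.

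The NFAT genes were then set against each other. Within each library the ratio of Nfatc1 to Nfatc2 counts, which no scaling between libraries can change, was 10, 10.8 and 7.4 in controls and 21.7, 17.9 and 16.9 in Rosa-Hes1 libraries. The groups did not overlap, and the ratio was 2.01-fold higher in Rosa-Hes1 cells (log2 difference 1.01). The ratio of Nfatc1 to Nfatc3 was 3.51, 4.31 and 3.37 in controls and 5.09, 5.25 and 5.62 in Rosa-Hes1 libraries, 1.43-fold higher and again without overlap. A two-sided exact permutation test gave p = 0.1 for both ratios, the smallest p that 3 against 3 libraries allow, and 0.2 after Benjamini-Hochberg adjustment over the 4 ratios computed.

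**Figure D2:**
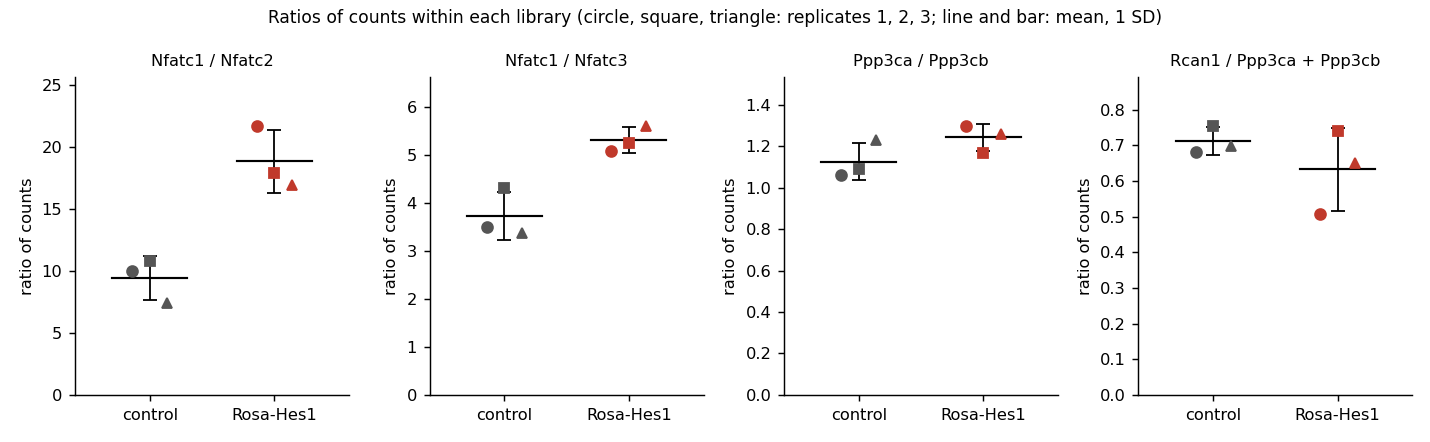
Ratio of counts within each library for 4 pairs, on axes that start at 0, with replicates marked by shape, the mean as a line and 1 SD as a bar. The Nfatc1 to Nfatc2 ratio lies between 7.4 and 10.8 in controls and between 16.9 and 21.7 in Rosa-Hes1 libraries, while the Ppp3ca to Ppp3cb and the Rcan1 to Ppp3ca plus Ppp3cb ratios overlap between the groups.

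Counts per kilobase of exon make the NFAT genes comparable with each other. Of the sum over Nfatc1, Nfatc2, Nfatc3 and Nfat5, Nfatc1 made 72.5%, 76.1% and 71.1% in controls and 80.9%, 80.6% and 81.1% in Rosa-Hes1 libraries. The share of Nfatc1 was above every control in each Rosa-Hes1 library, and its spread was narrow there (80.9 ± 0.288%, compared with 73.2 ± 2.57% in controls). Nfatc2 went from 5.62 ± 1.01% to 3.07 ± 0.393% and Nfatc3 from 12.6 ± 1.19% to 9.70 ± 0.468%, although the level of Nfatc3 itself did not pass the test. Nfat5, the relative that responds to osmotic stress and not to calcineurin, went from 8.51 ± 0.764% to 6.36 ± 0.110%. With the longest coding transcript as the length, Nfatc1 made 71.6% in controls and 79.5% in Rosa-Hes1 cells. Shares sum to the whole, so a rise of Nfatc1 lowers the others without a change in their levels.

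**Figure D3:**
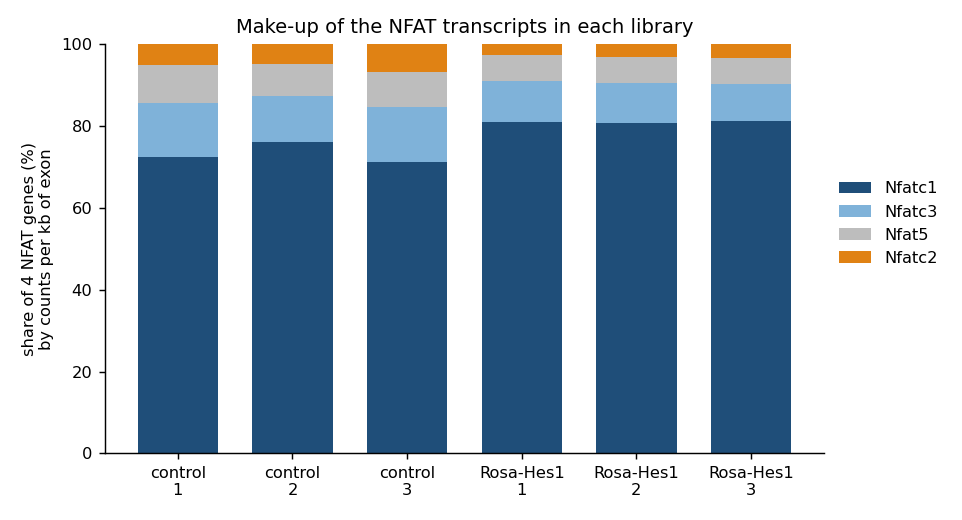
Share of Nfatc1, Nfatc3, Nfat5 and Nfatc2 in their summed counts per kilobase of exon, 1 bar per library. Nfatc1 takes 71.1% to 76.1% of the bar in controls and 80.6% to 81.1% in Rosa-Hes1 libraries, and Nfatc2 takes 4.97% to 6.79% and 2.63% to 3.4%.

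None of the 3 calcineurin subunits passed the test in either direction, by edgeR, DESeq2 or limma-voom, and 1 had an unadjusted p under 0.05. Ppp3ca (ENSMUSG00000028161, chr3:136670124-136937727, plus strand), the alpha catalytic subunit, was at 78.2, 92.0 and 97.0 CPM in controls and at 114, 93.1 and 112 CPM in Rosa-Hes1 libraries. Rosa-Hes1 replicates 1 and 3 were above all controls and replicate 2 lay within them. The log2 fold change was 0.26 (SE 0.11, 95% interval 0.01 to 0.50) with an edgeR unadjusted p of 0.0399 and an adjusted p of 0.171. Without Rosa-Hes1 replicate 2 it was 0.34 and past the threshold (adjusted p = 0.0405).

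Ppp3cb (ENSMUSG00000021816, chr14:20499364-20546573, minus strand), the beta catalytic subunit, was at 74.1, 84.2 and 78.6 CPM in controls and at 87.5, 79.5 and 89.2 CPM in Rosa-Hes1 libraries. The groups overlapped through Rosa-Hes1 replicate 2, as for Ppp3ca, and the log2 fold change was 0.11 (95% interval -0.06 to 0.29, edgeR adjusted p = 0.413). The ratio of Ppp3ca to Ppp3cb was 1.06, 1.09 and 1.23 in controls and 1.30, 1.17 and 1.26 in Rosa-Hes1 libraries. The ratios overlapped, and their exact permutation p was 0.2 (0.267 adjusted over the 4 ratios).

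Ppp3r1 (ENSMUSG00000033953, chr11:17159263-17200375, plus strand) encodes calcineurin B, the calcium-binding regulatory subunit that both catalytic subunits need. It was at 118, 144 and 143 CPM in controls and at 154, 141 and 154 CPM in Rosa-Hes1 libraries. Control replicate 1 was the lowest library, Rosa-Hes1 replicate 2 lay below control replicates 2 and 3, and the log2 fold change was 0.15 (95% interval -0.06 to 0.35, edgeR adjusted p = 0.35). Of its exon bases 14.3% overlap Wdr92 on the same strand, where counting may have left reads out as ambiguous. The upper limits of the 95% intervals were 1.41-fold for Ppp3ca, 1.22-fold for Ppp3cb and 1.28-fold for Ppp3r1, so a rise of the size fitted for Nfatc1 lay outside the intervals of Ppp3cb and Ppp3r1 and inside that of Ppp3ca.

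Rcan1 (ENSMUSG00000022951, chr16:92391953-92470867, minus strand) was at 104, 133 and 123 CPM in controls and at 102, 128 and 131 CPM in Rosa-Hes1 libraries. The means, 120 ± 14.9 and 120 ± 15.7 CPM, were equal to 3 digits, and replicate 1 was the lowest library of both groups. The log2 fold change was 0.0048 with a 95% interval of -0.27 to 0.28 (edgeR adjusted p = 0.989), or 0.831 to 1.21 times the control level. Counts were given per gene. Transcripts from the internal start with its 3 NFAT cores, shown above, and from all other starts are therefore pooled in these values. A change in 1 of them offset by another would not be seen. The ratio of Rcan1 to the sum of Ppp3ca and Ppp3cb was 0.681, 0.755 and 0.699 in controls and 0.508, 0.740 and 0.650 in Rosa-Hes1 libraries. These overlapped (two-sided exact permutation p = 0.4).

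**Figure D4:**
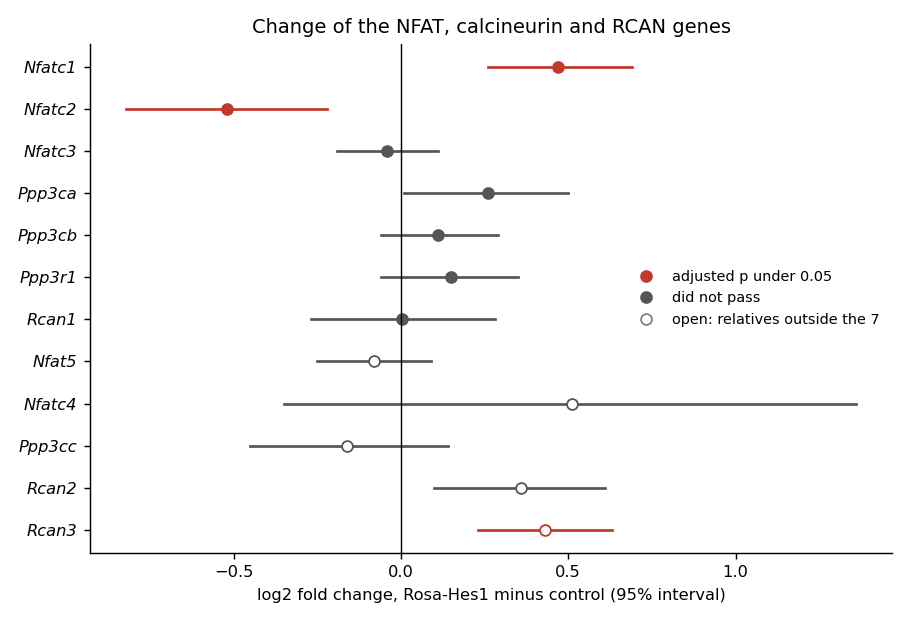
Fitted log2 fold change, Rosa-Hes1 minus control, with its 95% interval for the 7 genes (filled) and 5 relatives (open), in red where the adjusted p was under 0.05. The intervals of Nfatc1 (0.26 to 0.69) and Rcan3 (0.23 to 0.63) lie above 0 and that of Nfatc2 (-0.82 to -0.22) below 0. Those of Ppp3ca (0.01 to 0.50) and Rcan2 (0.10 to 0.61) also lie above 0, without passing the adjusted test.

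Among the 6 further relatives, Rcan3 rose and the other 4 tested did not pass (20% called, compared with 8.25% of all tested genes). Rcan3, which like Rcan1 binds calcineurin, was at 50.5, 57.3 and 61.3 CPM in controls and at 76.1, 71.4 and 79.8 CPM in Rosa-Hes1 libraries, a log2 fold change of 0.43 (SE 0.09, edgeR adjusted p = 0.0239). The groups did not overlap, and the call was lost without control replicates 1 or 2 or Rosa-Hes1 replicates 1 or 3, with adjusted p values of 0.0125 to 0.092 over the 6 omissions. Rcan2 was at 19.8 to 25.8 CPM in controls and 28.5 to 31.8 CPM in Rosa-Hes1 libraries, without overlap, and did not pass (log2 fold change 0.36, adjusted p = 0.0849). Of the 3 RCAN genes Rcan1 thus had the value nearest to 0, but the differences between them were not tested.

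Nfat5 had a log2 fold change of -0.08 (adjusted p = 0.556) and Ppp3cc, the catalytic subunit most abundant in testis, one of -0.16 at 12.8 ± 1.25 CPM in controls (adjusted p = 0.505). Nfatc4 was scarce, at 0.884 CPM in controls and 1.25 CPM in Rosa-Hes1 cells (log2 fold change 0.51, adjusted p = 0.453), and at this depth its interval ran from -0.35 to 1.36. Ppp3r2, the regulatory subunit of testis, had no count in any library.

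Per kilobase of exon, the order of levels in controls was led by Nfatc1 at 67.3 ± 8.55 CPM per kilobase, then Ppp3r1 at 41.8 ± 4.61 and Rcan1 at 38.9 ± 4.82. These were followed by Nfatc3 at 11.5 ± 0.304, Ppp3cb at 8.96 ± 0.574, Ppp3ca at 8.92 ± 0.972 and Nfatc2 at 5.11 ± 0.568. The control ranges of Ppp3r1 and Rcan1 overlapped, as did those of Ppp3cb and Ppp3ca, and all other neighbours in the order were apart. In Rosa-Hes1 cells Nfatc1 was at 93.4 ± 4.51 and Nfatc2 at 3.56 ± 0.583 CPM per kilobase, and these remained the highest and the lowest of the 7. Divided by the length of the longest coding transcript instead, Rcan1 came before Ppp3r1 (51.6 and 47.2) and no other place changed.

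The genes whose pattern over the 6 libraries was most like that of Nfatc1, by the root mean square difference of centred log2 CPM among the 9097 genes that averaged 10 CPM or more, were Creb3l2 (0.0409), Larp1b (0.042), St6galnac4 (0.0499), Ermp1 (0.0548) and Gm47863 (0.0565). Creb3l2, a membrane-bound transcription factor of the secretory pathway, was at 51.9, 57.5 and 44.7 CPM in controls and at 68.2, 70.9 and 70.8 CPM in Rosa-Hes1 libraries, with control replicate 2 the highest control, as for Nfatc1. For Rcan1 the nearest were Polr3gl (0.0466), Ppp6r1 (0.0727), Rnd1 (0.0737), Vasp (0.0751) and Gramd1a (0.0803). The adjusted p values of these 5 were 0.563 or higher.

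Genes around the pathway were read from lists. Of all 16954 tested genes edgeR called 8.25%, while DESeq2 called 2178 genes and limma-voom 2335. Of 20 tested genes that handle calcium around calcineurin, pumps and calmodulins among them, edgeR called 2 higher and none lower (10%). DESeq2 and limma-voom each called the same 2 higher and 2 lower, and the median log2 fold change was -0.04. Itpr3, a channel that releases calcium from the endoplasmic reticulum, was at 70.0, 77.8 and 69.4 CPM in controls and at 130, 122 and 106 CPM in Rosa-Hes1 libraries (log2 fold change 0.72, SE 0.09, adjusted p = 0.00591). Trpv2, a cation channel, rose by 0.73 (SE 0.10, adjusted p = 0.0073), and neither gene's groups overlapped. The calcium sensor gene Stim2 (-0.26, edgeR adjusted p = 0.0606) and Itpr1, a further calcium release channel (-0.51, 0.114), did not pass by edgeR and were the 2 lower genes of the other tools. The phospholipase gene Plcg1 (0.38, 0.109) did not pass by any of them.

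Of 7 other calcineurin regulators and receptors of drugs that block it, none passed by edgeR, DESeq2 or limma-voom, with 2 at an unadjusted p under 0.05. Chp1, a calcineurin B homologue, had a log2 fold change of 0.22 (edgeR adjusted p = 0.0923), Fkbp8 0.14 (0.173), Ppia, which encodes the cyclosporin receptor, -0.14 (0.224), and the scarce anchoring gene Akap5 1.34 (0.252). Of 12 NFAT kinases and nuclear transport genes none passed by edgeR, with 5 at an unadjusted p under 0.05, 1 past the threshold by DESeq2 and 2 by limma-voom. Nearest to it were Xpo1, the exporter of NFAT from the nucleus (-0.21, edgeR adjusted p = 0.0732), the NFAT kinases Dyrk1b (0.79, 0.114) and Dyrk2 (0.27, 0.133), and the importer Kpnb1 (-0.22, 0.146). Without Rosa-Hes1 replicate 2 edgeR called 1 of the first list and 3 of the second.

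Of 16 tested partners and inducers of Nfatc1, edgeR called 1 higher and 2 lower (18.8%, compared with 8.25% of all tested genes). DESeq2 called 2 higher and 3 lower, and limma-voom 2 higher and 2 lower. Fosl2, an AP-1 factor, was at 489, 564 and 440 CPM in controls and at 719, 696 and 713 CPM in Rosa-Hes1 libraries (log2 fold change 0.51, SE 0.09, adjusted p = 0.0152). Fos, the AP-1 factor needed to induce Nfatc1 after RANKL, went the other way, from 291, 290 and 284 CPM to 197, 248 and 235 CPM (-0.35, SE 0.09, adjusted p = 0.046). Mef2c also fell by 0.35 (SE 0.08, adjusted p = 0.0402), and Mef2a (-0.27, 0.0766) and the AP-1 gene Jun (0.38, 0.0907) did not pass by edgeR. DESeq2 called both of these, and limma-voom called Jun. On omission of control 1, or of Rosa-Hes1 1 or 3, none of the 16 passed by edgeR, and on omission of control 2 or 3, 1 passed.

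Of 7 repressors of Nfatc1, 1 fell and none rose (14.3%, compared with 8.25% of all tested genes), with a median log2 fold change of -0.38. Ikzf1, which encodes Ikaros, was at 102, 95 and 101 CPM in controls and at 68.9, 76.6 and 71.0 CPM in Rosa-Hes1 libraries (-0.46, SE 0.07, adjusted p = 0.00919). Id1 (-0.55, 0.0614) and Irf8 (-0.38, 0.0925) did not pass. All 7 genes were at an unadjusted p under 0.05 by edgeR, compared with 4357 of the 16954 tested genes, but not in 1 direction. Id2 had a log2 fold change of 0.25 (edgeR adjusted p = 0.107), with 33.6, 34.9 and 32.8 CPM in controls below the 41.7, 36.3 and 42.5 CPM of Rosa-Hes1 cells. On omission of control 2 edgeR called 4 of them, on that of Rosa-Hes1 2 it called 2 and on that of Rosa-Hes1 1 it called 0. DESeq2 called 4 lower and limma-voom 1 lower.

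Of 14 reported NFATc1 targets in osteoclasts 11 rose and none fell (78.6%, compared with 8.25% of all tested genes), with a median log2 fold change of 0.73. Slc4a2, the anion exchanger of the resorbing cell, rose by 0.89 (SE 0.11, adjusted p = 0.00566), and Clcn7, its lysosomal chloride transporter, by 1.08 (SE 0.14, 0.00659). The integrin gene Itgb3 rose by 0.78 (SE 0.10, 0.00566) and the proton pump gene Atp6v0d2 by 0.72 (SE 0.10, 0.00758). Ctsk (0.08, adjusted p = 0.709), Prdm1 (0.26, 0.202) and Siglec15 (0.40, 0.757) did not pass, and 1 copy of Ctsk in Rosa-Hes1 cells carried Cre. Of the 14 targets 9 are also in the osteoclast marker list, and 8 of these rose. Of the 5 that are not, 3 rose. Most of the 14, Itgb3 and Atp6v0d2 among them, had been reported by the study as increased in its RNA-Seq. Their share called is therefore no independent support for a change in NFATc1 activity. The number of targets called was 4 without Rosa-Hes1 replicate 1 and 6 without control replicate 3.

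**Figure D5:**
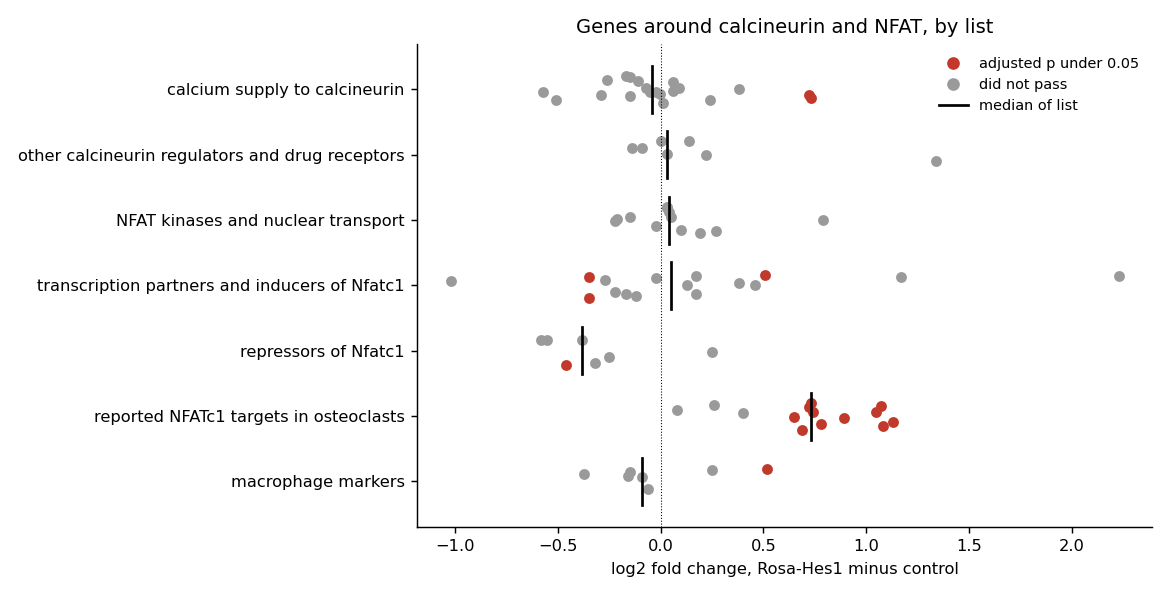
Fitted log2 fold change of each tested gene in 6 lists around calcineurin and NFAT and in the macrophage markers, 1 point per gene, in red where the adjusted p was under 0.05, with the list median as a black line. The reported NFATc1 targets have a median of 0.73 with 11 of 14 genes called, the repressors a median of -0.38 with 1 of 7 called, and the NFAT kinases and nuclear transport genes a median of 0.04 with none of 12 called.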

How the data were processed

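Libraries of polyadenylated RNA, 3 control and 3 Rosa-Hes1, were sequenced as paired reads in 1 pool with a stranded kit. The authors deposited raw counts per Ensembl gene for each library, made with Sickle, HISAT2 2.1.0, SAMtools 1.9, Picard (removal of duplicates) and HTSeq, on GRCm38 by the submitters' processing notes. How strand was set in the counting is not given in the sources used here, so reads of overlapping genes may have been assigned or left out in ways that cannot be traced. Reads not assigned to a gene, 17.4% to 18.1% of those in each count file, were left out of library sizes. They include the ambiguous reads, which were 5.51% to 6.07%.

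Genes whose counts over all libraries summed to 10 or more were tested with edgeR 4.0.16 in R 4.3.3 (TMM, robust quasi-likelihood, no covariate). DESeq2 1.42.0, limma 3.58.1, other scalings and filters, a replicate block and omission of each library were alternatives. The script was tested on simulated data. Names and positions came from GENCODE M21, and 0.167% of identifiers had no symbol. Levels between genes are CPM per kilobase of the gene's exons. The biological coefficient of variation was 0.124, and p values measure the spread between these libraries. Within a group, squared differences between library pairs averaged 9.49 to 18.4 times those of counting noise alone (chi-square per degree of freedom, scarce genes left out). SE is the log2 fold change divided by the root of the F statistic.

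The 7 genes and the lists were chosen with earlier results of these data known. Named are the 7 genes and their 6 relatives, from each list up to 4 genes lowest in adjusted p and all called genes where these were 5 or fewer, Hes1, and 5 genes most like Nfatc1 and Rcan1. A gene that this rule picks is not reported here. Ctsk, Prdm1, Siglec15, Itpr1, Jun, Id2, Csf1r and Cd4 were named after their values were seen. The lists were relatives, calcium supply, other regulators, kinases and transport, partners and inducers, repressors, reported targets and 8 marker lists, in which osteoclast, macrophage, T and NK cell, B cell, neutrophil, stroma, endothelial and erythroid markers were kept apart.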

Additional observations from a re-analysis of the deposited data

How the results depend on the processing

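The number of genes called over all genes was 1399, with 2178 by DESeq2, 2335 by limma-voom and 265 to 2646 when a library was left out, the highest without Rosa-Hes1 replicate 2. Of the 7 genes, 2 were called, and 0 to 3 when a library was left out. The log2 fold change over these omissions was 0.40 to 0.58 for Nfatc1, -0.61 to -0.39 for Nfatc2, 0.17 to 0.34 for Ppp3ca and -0.09 to 0.11 for Rcan1. Rcan1 changed sign with relative log expression size factors (-0.0014), DESeq2 (-0.0013) and limma-voom (-0.07), all of them near 0 and none called. Nfatc1 and Nfatc2 kept their direction and their call under the other scalings, filters and tests. The cause of the calls lost when a library was left out was not tested, but each such fit has 1 library fewer.

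Over the same omissions the lists had 0 to 1 called relatives, 0 to 1 other regulators, 0 to 3 kinases and transport genes, 0 to 4 partners and inducers, 0 to 4 repressors and 4 to 11 reported targets. With the longest coding transcript as the length, chosen after seeing the data, control levels per kilobase were 105 for Nfatc1, 7.92 for Nfatc2, 22.6 for Nfatc3, 18.7 for Ppp3ca, 20.6 for Ppp3cb, 47.2 for Ppp3r1 and 51.6 for Rcan1.

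With the replicate number as a block, 1050 genes were called, and Nfatc1 (0.48, edgeR adjusted p = 0.0295) and Nfatc2 (-0.53, adjusted p = 0.0285) stayed past the threshold. Same-numbered libraries had correlations of -0.0205, -0.148 and 0.375 in their deviations from the group means, so the numbers were not taken to pair the samples, and control replicates 1 and 2 correlated best with another number. The number of Rosa-Hes1 replicate 3 is that of its label, and its deposited file carries a different one, so the block and the third correlation are uncertain.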

Other observations

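Markers of cells other than osteoclasts and macrophages were scarce or did not pass the test. B cell markers summed to 3.70 to 5.39 CPM in controls and 4.35 to 5.89 CPM in Rosa-Hes1 libraries, and erythroid markers to 0.221 CPM or less. Neutrophil markers were at 226 to 439 CPM in controls and 213 to 287 CPM in Rosa-Hes1 libraries. Osteoblast and stroma markers were uneven within groups, at 179 to 486 CPM in controls and 113 to 377 CPM in Rosa-Hes1 libraries. Endothelial markers were at 18.1 to 52.7 CPM and 16.0 to 32.9 CPM. None of the tested genes in these lists passed by edgeR, DESeq2 or limma-voom, and at an unadjusted p under 0.05 there was 1 of 7 neutrophil markers and 0 in the other lists. Of the 7 macrophage markers edgeR called 1 higher (14.3%, compared with 8.25% of all tested genes). This was Cd68, with a log2 fold change of 0.52 (SE 0.09, edgeR adjusted p = 0.0142). DESeq2 and limma-voom called 2 higher, Cd68 and Csf1r (0.25, edgeR adjusted p = 0.0554), and Csf1r is the most abundant marker in the macrophage scale used for Nfatc2.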
